A study of Mus musculus with 6 samples.

Results

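Progress through G1 of the cell cycle is set by D-type cyclins, the kinases they activate and the inhibitors that hold those kinases back, and the reads of 10 genes of this module were followed here in mouse testes with and without Stra8. The genes were taken by symbol: the D cyclins Ccnd1, Ccnd2 and Ccnd3, the kinases Cdk4 and Cdk6, the Cip/Kip inhibitors Cdkn1a and Cdkn1b, and the INK4 family genes Cdkn2a, Cdkn2c and Cdkn2d. All 10 were found among the 21786 symbols that the 6 count files share, and 9 of them held enough reads to be tested. Polyadenylated RNA was sequenced from 3 testes of Stra8 -/- males aged 1 year, described in the labels as grossly enlarged and mostly made of type-A-like spermatogonia, and from 3 normal testes of Stra8 +/+ males aged 2 to 4 months. All animals had a C57BL/6 background, and no treatment is given. Stra8 is needed by germ cells to enter meiosis, and the comparison asks how the RNA of such an enlarged testis differs from that of a normal one. Genotype, age and enlargement changed together, so their effects cannot be told apart.

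D cyclins bind Cdk4 and Cdk6, and the active pair phosphorylates the RB proteins, which releases E2F factors to switch on genes of DNA replication. INK4 proteins bind the kinases alone, while the Cip/Kip proteins p21 (Cdkn1a) and p27 (Cdkn1b) act mainly on the later complexes with Cdk2. In the testis, cyclin D2 is known from dividing spermatogonia, p27 from non-dividing Sertoli cells, and p18 (Cdkn2c) and p19 (Cdkn2d) from germ cells that have left the mitotic cycle.

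Start-site sequences are shown for 3 members whose level rose, to give the DNA from which they are read. The windows come from RefSeq on build GRCm38.p6, where 8 of the 10 members matched (not Ccnd1 and Ccnd2), and cover up to 250 bases before a start, leaving out bases in annotated exons. They lie at chr10:127063285-127063533 (Cdk4, plus strand), chr6:134920151-134920400 (Cdkn1b, plus strand), chr4:89294654-89294869 (the upstream start of Cdkn2a, minus strand) and chr4:89282193-89282442 (the downstream start of Cdkn2a, minus strand). Each is printed 5′ to 3′ on the strand of the gene, and capitals mark E-boxes, E2F motifs and CCAAT boxes.
Cdk4: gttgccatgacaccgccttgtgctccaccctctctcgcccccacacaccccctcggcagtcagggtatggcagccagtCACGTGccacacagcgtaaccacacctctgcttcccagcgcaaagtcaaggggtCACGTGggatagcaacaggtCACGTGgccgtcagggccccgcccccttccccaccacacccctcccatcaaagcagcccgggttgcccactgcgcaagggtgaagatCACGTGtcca
Cdkn1b: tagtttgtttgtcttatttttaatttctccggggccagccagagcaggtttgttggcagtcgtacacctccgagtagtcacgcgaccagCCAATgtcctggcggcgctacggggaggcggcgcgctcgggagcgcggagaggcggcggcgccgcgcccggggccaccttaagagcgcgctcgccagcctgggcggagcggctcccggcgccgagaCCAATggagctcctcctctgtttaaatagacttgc
Cdkn2a, upstream start: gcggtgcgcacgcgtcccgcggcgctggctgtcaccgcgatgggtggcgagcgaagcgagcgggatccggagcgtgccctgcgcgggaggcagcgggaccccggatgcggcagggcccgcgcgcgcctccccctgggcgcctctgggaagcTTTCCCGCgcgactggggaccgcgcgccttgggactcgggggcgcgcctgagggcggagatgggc
Cdkn2a, downstream start: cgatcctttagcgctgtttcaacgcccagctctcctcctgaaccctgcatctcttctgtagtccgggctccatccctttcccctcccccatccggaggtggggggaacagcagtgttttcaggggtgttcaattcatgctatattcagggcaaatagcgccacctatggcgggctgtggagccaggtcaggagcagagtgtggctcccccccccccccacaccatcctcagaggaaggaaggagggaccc

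Motifs were counted on both strands over the full 250 bases. The Cdk4 window held 4 E-boxes (CACGTG, the letters bound by MYC-family factors). Of the 32851 windows of this length, 7 held as many or more, Cdk4 included. That cut was Cdk4's own count, the highest of any member window, so the rarity only describes this window. At least 1 E-box stood in 6.02% of all windows and in 2 of the 12 windows of the members, those of Cdk4 and Cdk6. The upstream start of Cdkn2a, from which the ARF transcript is read, held the E2F motif TTTCCCGC at -99 to -92 from the start. Of the E2F forms searched (TTTCCCGC, TTTCGCGC, TTTGCCGC and TTTGGCGC, both strands), 1.86% of all windows held any, and no other member window did. Cdkn1b carried 2 CCAAT boxes, at -161 to -157 and -35 to -31. CCAAT on either strand stood in 33.8% of all windows and in 3 of the 12 windows of the members. Searched but not marked by capitals, the GC box (GGGCGG) stood in 32.7% of all windows and in 8 of the members'. The TATA box (TATAAA) stood in 12.4% of all windows and in 1 of the members'. None of these letters was found in the window of the downstream Cdkn2a start, from which p16 is read. The motifs do not overlap one another, and a match describes letters, not binding.

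Values below are CPM, the reads of a gene scaled to one common library total after adjusting each total by TMM, a factor that lines up the bulk of the genes. Libraries held 6733128 to 12425689 gene reads. Stra8 itself was read in every library (211 to 270 reads in Stra8-deficient, 93 to 132 in wild type), and since no source used here gives the deleted part of the allele, its level checks no label. The third Stra8-deficient library was counted on a longer gene list (23285 symbols against 22055). Of 15018 genes tested, 75.8% were called at a Benjamini-Hochberg adjusted p under 0.05 in edgeR's quasi-likelihood test, 39.0% higher and 36.7% lower in Stra8-deficient testes. A call is therefore common here, and sizes say more than calls. Higher genes made up 51.50% of calls with TMM, 63.56% when size alone set the scale and 78.92% when 21 Sertoli cell genes did. The respective medians over all genes were 0.11, 0.72 and 1.88 (log2).

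Among the 9 tested members, 5 were higher in Stra8-deficient testes (Ccnd2, Cdk4, Cdk6, Cdkn1b and Cdkn2a), 2 were lower (Ccnd3 and Cdkn2c) and 2 were not called (Ccnd1 and Cdkn1a). Beside the background of 75.8% called, 7 of 9 is no more than a share near that of all genes. The median log2 fold change of the 9 was 2.35, against 0.11 for all genes tested. The 3 libraries of one genotype lay wholly to one side of the other's in the same 7 members, as they did in 80.2% of all genes. Activators and inhibitors were found on both sides: each kinase rose, 1 of 3 D cyclins rose, and of the 4 tested inhibitors 2 rose and 1 fell.

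**Figure D1:**
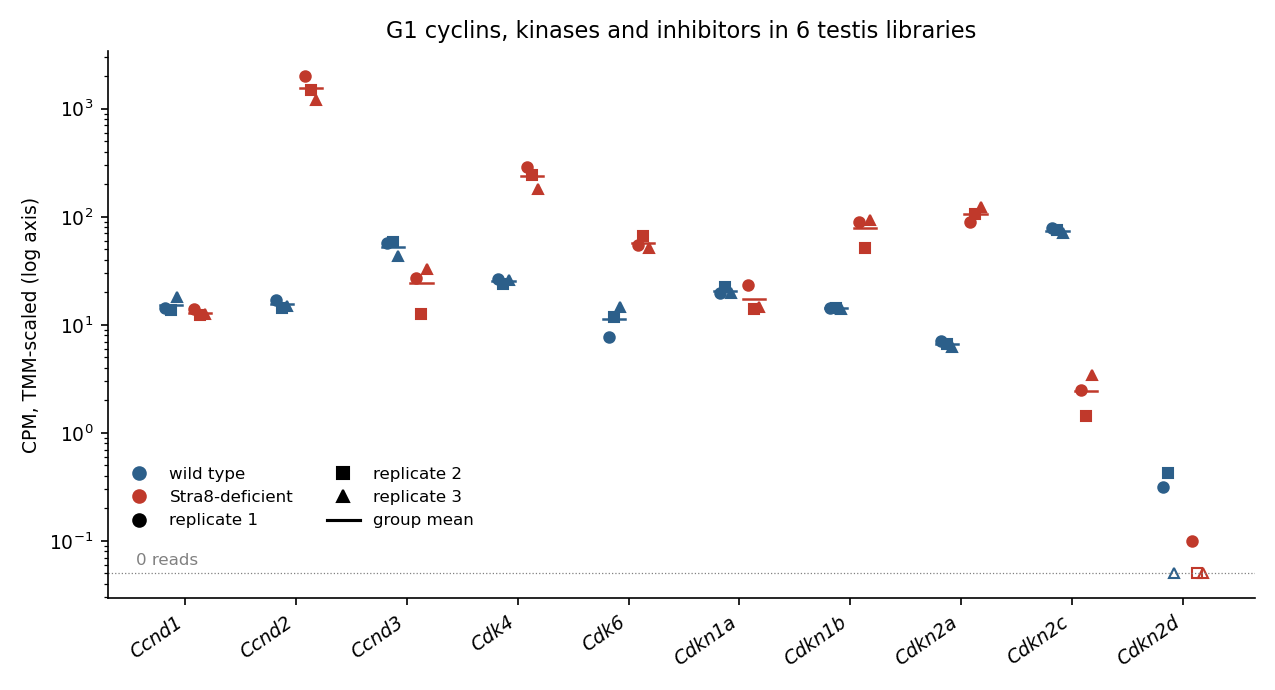
CPM of the 10 genes (x axis) on a log y axis, with 1 point per library (red Stra8-deficient, blue wild type, shapes for replicates), lines for group means of the 9 tested genes, and open points on the dotted line for 0 reads. Ccnd2 stood at 1193 to 2025 CPM in the Stra8-deficient and 14.4 to 16.8 CPM in the wild-type libraries, and Cdkn2c showed the reverse pattern.

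Among the D cyclins, Ccnd2 (chromosome 6, 127125162 to 127152193 on GRCm38) carried the change. Stra8-deficient libraries read it at 2025, 1498 and 1193 CPM, wild-type ones at 16.8, 14.4 and 15.02 CPM. Every Stra8-deficient library lay far above every wild-type library. Its log2 fold change was 6.67 ± 0.29 (SE), a 102-fold rise (edgeR, adjusted p = 9.25e-08). In RNA of a whole organ, more cells that hold a transcript and more transcript per cell cannot be told apart. Marker lists of spermatogonia moved the same way, where 39.0% of all genes were higher and 36.7% lower. Of 24 genes of undifferentiated spermatogonia 21 were higher and 3 lower. They summed to 1960 to 3040 CPM against 183 to 189 CPM. Of 10 genes of differentiating spermatogonia, a list that holds Stra8 itself, 7 were higher and 2 lower (2070 to 3212 against 1144 to 1196 CPM). Pax7 was the one gene of these lists with 0 wild-type reads, and the part of cell numbers in the rise of Ccnd2 was not tested.

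Ccnd1 (chromosome 7), the D cyclin best known as a target of growth factor signalling, stood at 13.9, 12.3 and 12.7 CPM in Stra8-deficient and 14.3, 13.7 and 17.9 CPM in wild-type testes. These ranges overlap. They differed by -0.24 ± 0.23 on the log2 scale (edgeR, adjusted p = 0.369). Its sign depended on the scaling: 0.04 under upper-quartile factors, 0.38 when libraries were scaled by size alone, and 1.55, then called, when the Sertoli cell genes set the scale (edgeR, adjusted p = 0.00574).

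Ccnd3 (chromosome 17), the remaining D cyclin, went the other way. It was read at 26.9, 12.7 and 33.1 CPM in Stra8-deficient and 57.2, 57.8 and 43.6 CPM in wild-type testes. The second Stra8-deficient library was lowest, and the groups did not overlap. The log2 fold change was -1.12 ± 0.33, or 2.18-fold lower (edgeR, adjusted p = 0.0119). It was not called when size alone set the scale (-0.51; edgeR, adjusted p = 0.178) and changed sign, without a call, against the Sertoli cell genes (0.48; edgeR, adjusted p = 0.387). Of 20 tested Sertoli cell genes 15 were lower and none higher, where 36.7% of all genes were lower. The list summed to 865, 653 and 1866 CPM in the 3 Stra8-deficient libraries and 3147 to 3441 CPM in wild type. Within the Stra8-deficient libraries this sum took the same order as Ccnd3, lowest in the second and highest in the third. The summed macrophage and Leydig cell genes, Cdkn1b and Cdkn2c took that order too. So did the summed genes of differentiating spermatogonia (2579, 2070 and 3212 CPM). That order is thus not particular to Sertoli cell genes. The part of Sertoli cells in the fall of Ccnd3 was not tested.

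A comparison inside each library needs no scaling between libraries. Of the reads of the 3 D cyclins, Ccnd2 took 98.0%, 98.4% and 96.3% in Stra8-deficient testes and 19.0%, 16.7% and 19.6% in wild-type testes. D cyclin reads of the mutant testes were thus nearly all Ccnd2, and those of normal testes mostly Ccnd3. The mean shares of Ccnd2 were 97.6 ± 1.10% and 18.5 ± 1.52% (SD, n = 3 each; exact two-sided permutation test, p = 0.1). Ccnd3 held 63.0 ± 5.40% in wild type and 1.601 ± 0.956% in Stra8-deficient testes, and Ccnd1 18.5 ± 4.26% and 0.835 ± 0.177%. Divided by transcript length, the share of Ccnd2 was 94.1 ± 2.86% against 7.76 ± 0.866%. Groups of 3 allow no exact permutation p under 0.1, which each of the 6 shares and ratios computed gave (0.1 after Benjamini-Hochberg adjustment). The 3 D cyclins together summed to 1609 ± 420 CPM in Stra8-deficient and 83.6 ± 6.24 CPM in wild-type testes (SD, n = 3 each).

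**Figure D2:**
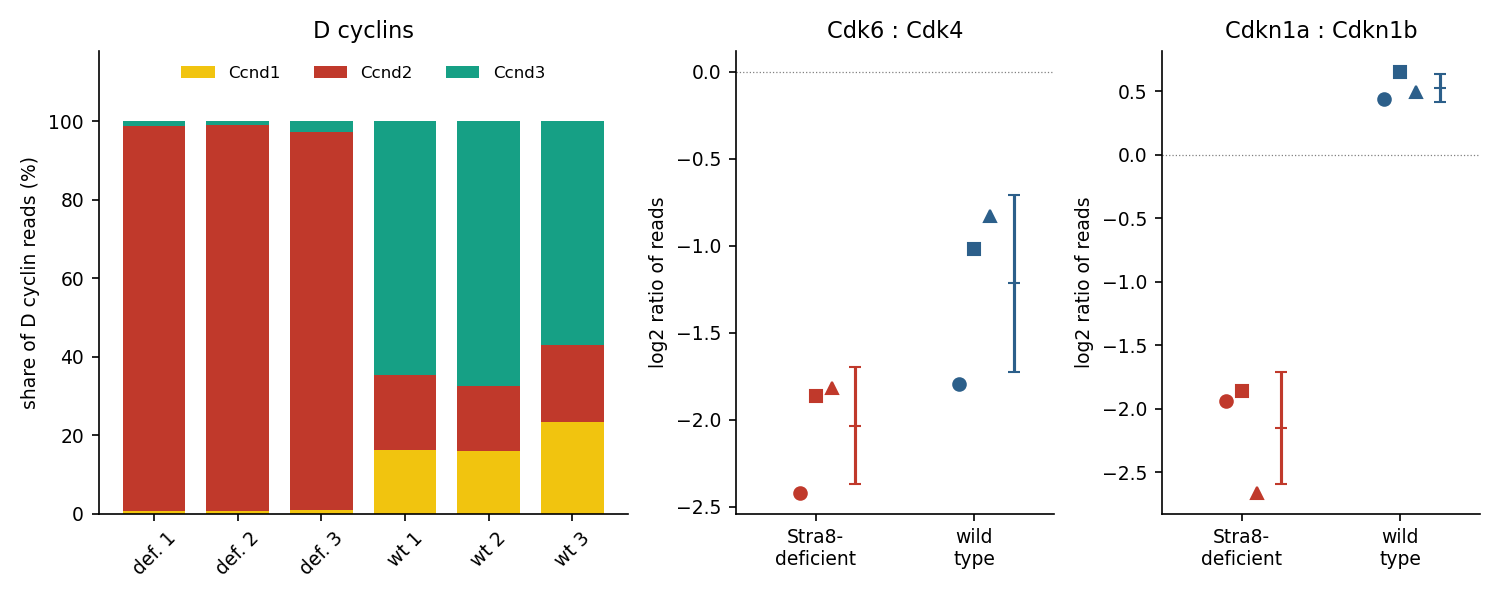
Left, the share of each D cyclin in the reads of all 3 (y axis, percent) for each library (def., Stra8-deficient; wt, wild type). Middle and right, log2 ratios of the reads of Cdk6 to Cdk4 and of Cdkn1a to Cdkn1b, with 1 point per library (shapes for replicates) and the mean with its SD; both ratios were lower in every Stra8-deficient library than in any wild-type library.

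Both kinases rose. Cdk4 (chromosome 10), the main partner of D cyclins in many tissues, was read at 291, 243 and 181 CPM in Stra8-deficient and 26.7, 23.8 and 25.8 CPM in wild-type testes. The lowest Stra8-deficient library was well above the highest wild-type library. Its log2 fold change was 3.23 ± 0.22, a 9.37-fold rise (edgeR, adjusted p = 1.48e-06). Cdk6 (chromosome 5), its close relative, was read at 54.3, 66.9 and 51.3 CPM against 7.64, 11.7 and 14.5 CPM. Here the wild-type libraries spread more than the Stra8-deficient ones (coefficient of variation 30.5% against 14.4%), and the groups stayed apart. The rise was 5.11-fold (log2 fold change 2.35 ± 0.27; edgeR, adjusted p = 3.95e-05). 

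The balance between the kinases moved toward Cdk4. The log2 ratio of Cdk6 to Cdk4 reads was -2.42, -1.86 and -1.82 in Stra8-deficient testes and -1.79, -1.02 and -0.83 in normal ones. The groups did not overlap, but the third Stra8-deficient and the first wild-type library nearly met. Means were -2.03 ± 0.34 and -1.22 ± 0.51 (SD, n = 3 each; exact two-sided permutation test, p = 0.1), a difference of -0.82.

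The Cip/Kip inhibitors parted. Cdkn1b, on chromosome 6 and encoding p27, was read at 89.9, 51.4 and 92.4 CPM in Stra8-deficient and 14.3, 14.2 and 13.9 CPM in wild-type testes. All Stra8-deficient libraries were higher, the second least so, and the wild-type libraries were nearly alike. The log2 fold change was 2.46 ± 0.26, a 5.50-fold rise (edgeR, adjusted p = 2.45e-05). Cdkn1a, on chromosome 17 and encoding p21, the inhibitor induced by p53, was at 23.5, 14.1 and 14.6 CPM against 19.5, 22.4 and 19.6 CPM. The first Stra8-deficient library was above every wild-type library, and the second and the third were below all of them. With all libraries it differed by -0.24 ± 0.26 on the log2 scale (edgeR, adjusted p = 0.414), and without the first Stra8-deficient library by -0.55, a call (edgeR, adjusted p = 0.0325; 0.00479 to 0.908 over all alternatives). The sign turned when size alone set the scale (0.38), under upper-quartile factors (0.04), and against the Sertoli cell genes, where it was called higher (1.57).

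Within libraries the ratio of the 2 inhibitors inverted. Cdkn1a had more reads than Cdkn1b in each wild-type library (log2 ratio 0.44, 0.65 and 0.49) and fewer in each Stra8-deficient library (-1.94, -1.86 and -2.66). The means were 0.53 ± 0.11 and -2.15 ± 0.44 (SD, n = 3 each; exact two-sided permutation test, p = 0.1), a difference of -2.68.

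Cdkn2a (chromosome 4, 89274471 to 89294653 on GRCm38) encodes 2 unrelated proteins from the 2 starts shown above: p16, which binds Cdk4 and Cdk6, and ARF, which frees p53 from Mdm2. Reads were summed over the gene, so these data do not tell the transcripts apart. The gene was read at 89.7, 105 and 123 CPM in Stra8-deficient and 7.01, 6.63 and 6.23 CPM in wild-type testes. Spread within a genotype was small beside the gap. Its log2 fold change was 4.00 ± 0.21, a 15.96-fold rise (edgeR, adjusted p = 2.89e-07).

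Cdkn2c, also on chromosome 4 (109660876 to 109667189 on GRCm38) and encoding p18, fell most. It was read at 2.51, 1.43 and 3.41 CPM in Stra8-deficient and 78.7, 74.7 and 70.3 CPM in wild-type testes, from 91 and 1419 reads in all. The highest Stra8-deficient library was far under the lowest wild-type library. The log2 fold change was -4.90 ± 0.31, or 29.8-fold lower (edgeR, adjusted p = 9.55e-07). Markers of germ cells past the mitotic stage were lower too, where 36.7% of all genes were lower. Of 20 genes of meiotic spermatocytes 16 were lower and none higher (summed level 725 to 805 against 11864 to 12661 CPM). All 20 spermatid genes were lower (106 to 134 against 37441 to 42107 CPM), with Catsper1 and Spata3 at 0 reads in Stra8-deficient testes. The part of those cells in the level of Cdkn2c was not tested.

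Cdkn2d (chromosome 9), which encodes p19, was hardly read in either genotype. Stra8-deficient libraries held 1, 0 and 0 of its reads and wild-type libraries 2, 3 and 0, under the limit for testing. The wild-type to Stra8-deficient ratio of rates was 9.34, with a 95% counting interval of 1.05 to 442 that covers counting error alone. Its ratio to Cdkn2c was among the 6 shares and ratios computed above, but it is not interpreted at so few counts.

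**Figure D3:**
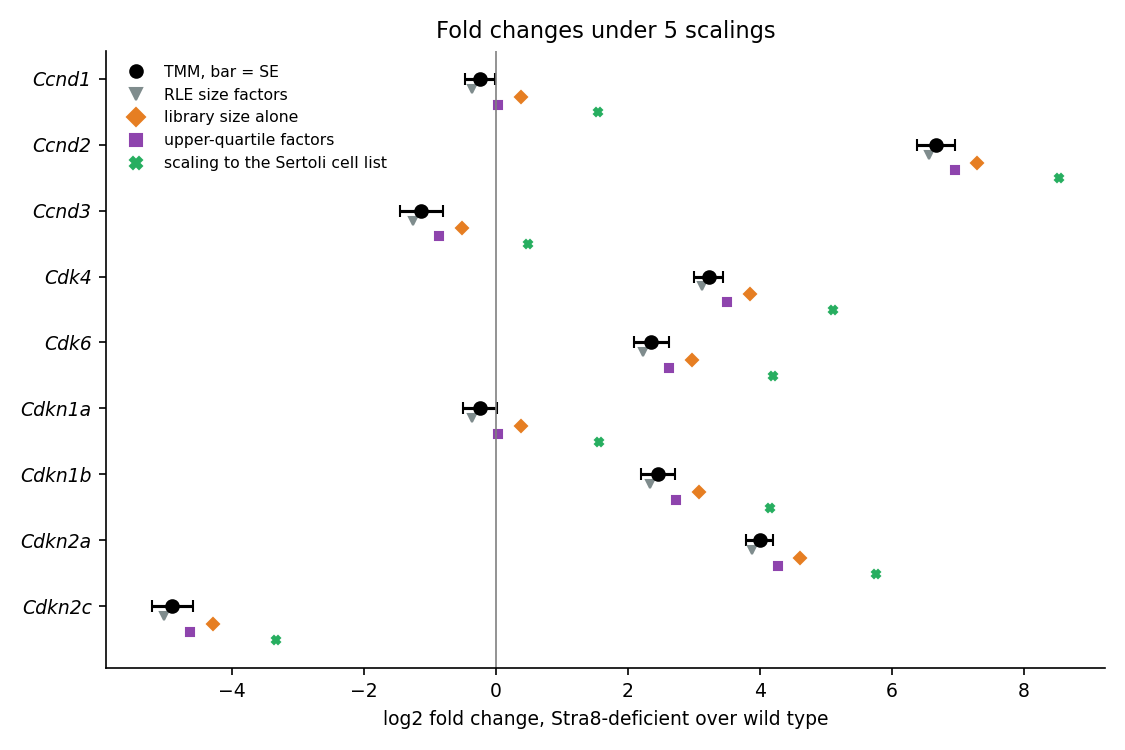
Log2 fold change, Stra8-deficient over wild type (x axis), of the 9 tested genes (y axis) with TMM scaling (black, bar = SE) and with 4 other scalings (coloured, no bar). The rises of Ccnd2, Cdk4, Cdk6, Cdkn1b and Cdkn2a and the fall of Cdkn2c kept their side of 0 under all 5, while Ccnd1, Ccnd3 and Cdkn1a crossed it under at least 1.

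Levels of different genes were compared per kilobase of transcript, using the longest principal transcript of GENCODE M21. In wild-type testes Cdkn2c led (28.5 to 31.9 CPM per kb), followed by Ccnd3 (20.6 to 27.4), Cdk4 (11.6 to 12.98), Cdkn1a (9.37 to 10.8), Cdkn2a (6.96 to 7.84), Ccnd1 (3.66 to 4.80), Cdkn1b (3.06 to 3.15), Ccnd2 (2.27 to 2.66), Cdk6 (0.663 to 1.26) and Cdkn2d (0 to 0.297). No neighbours in that order overlapped. The order in Stra8-deficient testes was led by Ccnd2 (189 to 320 CPM per kb), with Cdkn2a (100.2 to 137) and Cdk4 (88.3 to 142) next and overlapping each other. Cdkn1b (11.3 to 20.3), Ccnd3 (5.99 to 15.7) and Cdkn1a (6.77 to 11.3) followed, each overlapping its neighbour. Cdk6 (4.45 to 5.80), Ccnd1 (3.28 to 3.72), Cdkn2c (0.577 to 1.38) and Cdkn2d (0 to 0.0704) came last, apart from one another. Among the members, the leading inhibitor was thus Cdkn2c in normal and Cdkn2a in Stra8-deficient testes.

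Replicates were less alike among the enlarged testes. The coefficient of variation of a member was larger in the Stra8-deficient libraries for 7 of the 9 tested members, up to 43.3% for Ccnd3 and 40.6% for Cdkn2c. Ccnd1 (6.64% against 14.999%) and Cdk6 were the exceptions. Ccnd2 and Cdk4 shared an order, highest in the first and lowest in the third Stra8-deficient library. The summed genes of undifferentiated spermatogonia (3040, 1998 and 1960 CPM) and of endothelial cells (285, 208 and 136 CPM) took that order too. Markers of other cells differed between those libraries too. Macrophage genes summed to 875, 716 and 2710 CPM (123 to 134 in wild type, Mmp12 and Lyz1 at 0 wild-type reads). Of 16 tested, 14 were higher, where 39.0% of all genes were higher. Leydig cell genes summed to 409, 47.8 and 3002 CPM (986 to 1496 in wild type). Of 12, 1 was lower and none higher, where 36.7% of all genes were lower. The part of these cells in the members' levels was not tested.

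In the authors' deposited table all 10 members are listed, 7 of them with a corrected p under 0.05. The authors' deposited table gives log2 ratios of 6.68 for Ccnd2, 3.23 for Cdk4, 4.00 for Cdkn2a and -4.91 for Cdkn2c. It lists Cdkn2d at -3.21 with a corrected p of 0.188 in the authors' deposited table.

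Around these members, 37 other genes of the G1 pathway were tested, of which 19 were higher, 9 lower and 9 not called, again near the background of 75.8%. Their median log2 fold change was 0.79, against 0.11 for all genes. When size alone set the scale 2 were lower, and against the Sertoli cell genes 29 were higher and 1 lower. Of all 15018 genes tested, 4327 were lower with the first scaling, and 9306 were higher and 2486 lower with the second.

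Of 2 further CDK inhibitor genes, Cdkn1c rose and Cdkn2b was not called. Cdkn1c, an imprinted gene encoding p57, was at 393, 80.9 and 229 CPM in Stra8-deficient and 24.0, 23.0 and 21.2 CPM in wild-type testes. Its Stra8-deficient libraries differed widely, and all lay above wild type. It rose by 3.36 ± 0.52 on the log2 scale (edgeR, adjusted p = 3.89e-04), or by 2.73 with the first of them left out. Cdkn2b, which encodes p15 next to Cdkn2a, was at 10.2, 9.89 and 8.89 CPM against 12.9, 9.59 and 11.7 CPM (-0.24 ± 0.25; edgeR, adjusted p = 0.410). The rise seen at Cdkn2a was thus not seen at its neighbour with TMM scaling, though after scaling to the Sertoli cell genes Cdkn2b was called higher (1.58).

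The RB family, the substrates of the D cyclin kinases, had 1 member higher and 2 lower, where 75.8% of all genes were called. Rb1 rose by 1.09 ± 0.19 (95.3 ± 19.1 against 44.7 ± 0.177 CPM, SD, n = 3 each). Rbl2, which encodes p130, a member linked to resting cells, was at 4.11, 7.13 and 10.8 CPM against 141, 148 and 128 CPM. That fall of 4.22 ± 0.33 on the log2 scale (log2 fold change -4.22; edgeR, adjusted p = 3.56e-06) was the largest among the 37 genes. Rbl1 was lower (-0.88 ± 0.19), a call lost when size alone set the scale (-0.26) and reversed in sign against the Sertoli cell genes (0.94).

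E2F genes, the targets of RB, had 5 of 8 members higher, 2 lower and 1 not called, and both DP partner genes were higher. Among all genes tested 75.8% were called, 39.0% higher and 36.7% lower, so these counts alone do not set the E2F genes apart. E2f6, which encodes a repressor E2F without an RB-binding part, rose by 4.18 ± 0.20, from 4.72 ± 0.385 to 85.5 ± 6.16 CPM (SD, n = 3 each; edgeR, adjusted p = 1.74e-07). The activators E2f1 (2.85 ± 0.21) and E2f3 (1.83 ± 0.22) rose as well. E2f4, a repressor E2F, was lower (-0.94 ± 0.19), a call lost when size alone set the scale (-0.32) and reversed in sign against the Sertoli cell genes (0.84).

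Cyclin E and its kinase, which act after the D cyclins, did not move alike. Cdk2 was lower (-1.11 ± 0.21; edgeR, adjusted p = 9.64e-04), a call lost when size alone set the scale (-0.49) and reversed in sign against the Sertoli cell genes (0.79). Ccne1 was higher by 0.74 ± 0.26 (edgeR, adjusted p = 0.0265). That call was lost under RLE factors (0.62) and without the first (0.69) or the third (0.66) Stra8-deficient or the first (0.68) or second (0.56) wild-type library. Ccne2 was at 18.4 ± 4.11 against 21.4 ± 4.93 CPM (-0.21 ± 0.27; edgeR, adjusted p = 0.485), and was called higher against the Sertoli cell genes (1.61). Cdc25a, a phosphatase that activates Cdk2, was lower (-1.13 ± 0.25), with the same loss (-0.51) and turn of sign (0.71).

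Genes that handle cyclins, kinases and p27 also differed. Ccndbp1, whose product binds D cyclins, rose by 2.34 ± 0.22, and Cdc37, a chaperone partner that folds Cdk4, by 2.02 ± 0.22. Cks1b, the cofactor with which Skp2 marks p27 for breakdown, rose by 3.81 ± 0.44, from 1.52 ± 0.762 to 21.9 ± 7.004 CPM (SD, n = 3 each). Skp2 was lower (-0.66 ± 0.24; edgeR, adjusted p = 0.0308), but not called with library size (-0.05) or upper-quartile factors (-0.38), nor with any 1 wild-type library left out (-0.72 to -0.64) or the first (-0.57) or the third (-0.51) Stra8-deficient library, and it was called higher against the Sertoli cell genes (1.27). Fbxo4, a ubiquitin ligase subunit known for cyclin D1, was lower (-1.62 ± 0.34), a call lost against the Sertoli cell genes (-0.01).

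Regulators of the members moved unevenly. Mycn, of the MYC family whose factors bind E-boxes, was at 88.4, 27.1 and 34.0 CPM in Stra8-deficient testes. In wild-type testes it was at 5.61, 4.09 and 6.96 CPM. It rose by 3.17 ± 0.48 (edgeR, adjusted p = 2.57e-04), or by 2.44 without the first Stra8-deficient library. Myc was read at 1.701 ± 0.24 against 0.702 ± 0.45 CPM (SD, n = 3 each) and was not called (1.22 ± 0.52; edgeR, adjusted p = 0.0581). It was called higher under 5 of 17 alternatives: size alone as the scale (1.83), upper-quartile factors (1.49), the Sertoli cell genes (2.91), limma-voom (1.36) and the exact test of edgeR (1.22). Bmi1, a Polycomb gene known to repress Cdkn2a, was at 41.5 ± 8.87 against 38.4 ± 5.06 CPM (0.11 ± 0.22; edgeR, adjusted p = 0.659), but was called higher when size alone set the scale (0.72) and against the Sertoli cell genes (1.88). Trp53 rose by 1.40 ± 0.27 and Mdm2, its inhibitor, was not called (-0.41 ± 0.27; edgeR, adjusted p = 0.189) except against the Sertoli cell genes, where it was higher (1.36).

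**Figure D4:**
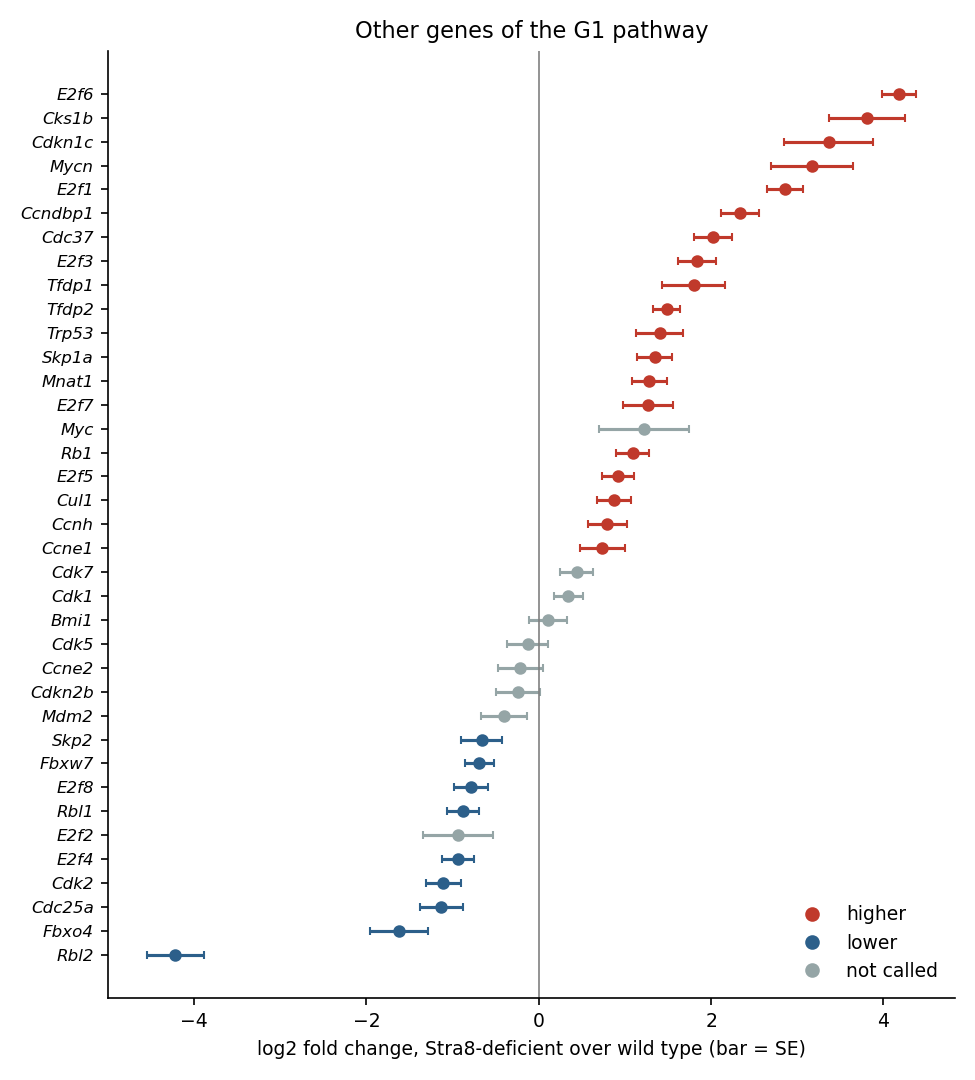
Log2 fold change, Stra8-deficient over wild type (x axis, bar = SE), of the 37 other genes of the G1 pathway (y axis), coloured by call (red higher, blue lower, grey not called). E2f6 at 4.18 and Rbl2 at -4.22 mark the ends.

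Among 23 tested p53 target genes, a list that does not hold Cdkn1a itself, 15 were higher, 3 lower and 5 not called, a share called near the 75.8% of all genes. Their median log2 fold change was 2.05, against 0.11 for all genes. Eda2r (4.73 ± 0.51), the cell death gene Bax (4.15 ± 0.18) and the DNA repair gene Xpc (3.64 ± 0.21) rose most among those whose average log2 CPM was 0 or more. Eda2r had only 9 wild-type reads in all, and its rise was 4.39 to 5.18 with 1 wild-type library left out. The lower genes were the polymerase gene Polk (-2.89 ± 0.25), Zmat3 (-1.43 ± 0.24) and Sesn2 (-1.29 ± 0.42), and Sesn2 reached -2.07 once the first Stra8-deficient library was left out. Its call was lost without the second (-1.06) or the third (-1.03) Stra8-deficient or the first wild-type library (-1.18), when size alone set the scale (-0.66) and under upper-quartile factors (-1.01). Against the Sertoli cell genes Sesn2 (0.56) and Zmat3 (0.47) turned sign without a call. Mdm2, a p53 target as well as an inhibitor of p53, was among the 5 not called, as was Cdkn1a outside the list.

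Of 28 genes of the mitotic cycle 20 were higher, 4 lower and 4 not called, where 75.8% of all genes were called and 39.0% were higher. Their median log2 fold change was 1.63, against 0.11 for all genes. Mcm2, a replication helicase subunit, was at 733, 393 and 369 CPM against 26.7, 27.1 and 27.5 CPM (4.20 ± 0.31; edgeR, adjusted p = 2.19e-06). Tyms, which makes thymidylate (4.10 ± 0.69, or 4.70 and 3.45 without the first and the second wild-type library), and the cyclin gene Ccna2 (3.66 ± 0.19) rose next. Plk1 (-1.95 ± 0.24), Foxm1 (-1.53 ± 0.24) and Ccnb2 (-1.20 ± 0.22) fell most among those whose average log2 CPM was 0 or more. The mitotic kinase gene Cdk1, also on the list, was not called (0.34 ± 0.17). Against the Sertoli cell genes they stood at -0.18, 0.31 and 0.49, without a call.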

How the data were processed

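Polyadenylated RNA of 6 whole testes (3 per genotype) was measured. TRIzol extraction, DNase treatment and Illumina's mRNA-Seq kit are named in the labels' protocols. Per the submitters' processing notes, TopHat, HTSeq and edgeR were used with mm9, for which the sources used here give no versions or settings. The deposited counts are whole reads per gene symbol, 1 file a library, not normalised. Whether counting used strand is not stated, and overlapping or antisense partners may share reads. The authors' deposited table gives log2 ratios and p-values of their own comparison.

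HTSeq's counters (20.9% to 34.5% of reads) name no gene and were left out. The 21786 symbols in all 6 files were filtered with filterByExpr (15018 kept), scaled by TMM and tested with edgeR 4.0.16 (R 4.3.3; glmQLFit, robust; genotype as the one term). P-values were Benjamini-Hochberg adjusted over all genes tested (threshold 0.05). SE is the log2 fold change over the root of F. The labels describe separate males. Ratios within a library added 0.5 reads. Alternatives included DESeq2 1.42.0 and limma 3.58.1, other scalings, filters and left-out libraries. Replicates of a genotype differed beyond sampling noise, the Stra8-deficient ones far more. Chi-square per degree of freedom was 50.0 to 61.3 between Stra8-deficient libraries and 2.63 to 4.17 between wild-type ones. Coordinates are GRCm38 (GENCODE M21), not the authors' build, and lengths from it are approximate here.

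The 10 members and all gene lists were chosen with earlier results of these data known. Named beyond the members are genes of the pathway list, and of the p53 and mitotic lists the 3 called genes that rose most and the 3 that fell most (average log2 CPM no lower than 0).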

Additional observations from a re-analysis of the deposited data

How the results depend on the processing

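Across 17 alternatives (scalings, filters, other tools, a replicate block and each library left out), Ccnd2, Cdk4, Cdk6, Cdkn1b, Cdkn2a and Cdkn2c kept their direction and call. When size alone set the scale, and when the Sertoli cell genes did, 1 member was lower in place of 2. Against the Sertoli cell genes 7 members were higher in place of 5, with Ccnd1 and Cdkn1a added, where 9306 of all 15018 genes were higher. Without the first Stra8-deficient library 3 members were lower, with Cdkn1a added. Of the other G1 pathway genes, 2 were lower with library size alone, and 29 were higher and 1 lower after scaling to the Sertoli cell genes. A filter planned as stricter (CPM of at least 1 in 3 libraries) kept 15339 genes, more than the 15018 of filterByExpr. Per kilobase the share of Ccnd2 in the D cyclins differed by 86.3 percentage points in place of 79.1. Signs turned with library size alone for Ccnd1 (0.38), Cdkn1a (0.38), Cdkn2b (0.38), Ccne2 (0.40) and Mdm2 (0.20), and with upper-quartile factors for Ccnd1 (0.0352), Cdkn1a (0.0356), Cdkn2b (0.0352) and Ccne2 (0.0612). After scaling to the Sertoli cell genes they turned for Ccnd1 (1.55), Ccnd3 (0.48), Cdkn1a (1.57), Cdkn2b (1.58), Ccne2 (1.61), Cdk2 (0.79), Rbl1 (0.94), E2f4 (0.84), Cdc25a (0.71), Skp2 (1.27), Mdm2 (1.36), Zmat3 (0.47), Sesn2 (0.56), Foxm1 (0.31) and Ccnb2 (0.49). By construction that scaling lifts every gene against the fallen Sertoli cell list. Bmi1 was at -0.00912 with RLE factors and -0.0201 to 0.25 with a library left out, and was called higher when size alone set the scale (0.72) and against the Sertoli cell genes (1.88).

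With the replicate number as a replicate block, 11219 genes were called (11379 without), and the same numbers of members (5 higher, 2 lower) and other pathway genes (19 and 9). Same-numbered libraries deviated together little (r = 0.06, 0.08 and -0.04), and the third Stra8-deficient library correlated best with the first wild-type library (0.08), so the numbers were not taken as pairs. Cdkn2d, at 6 reads in all, was under the limit for testing, and the cause of its low count was not tested.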
